A study of Bos taurus with 6 samples.

Results

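The nuclear envelope of testis cells was examined through 10 genes: the SUN genes SUN1, SUN2, SUN3, SUN5 and SPAG4, the nesprin genes SYNE1 and SYNE2, and the lamin genes LMNA, LMNB1 and LMNB2. They were selected by gene symbol from a table of 47249 genes, and each symbol matched 1 entry. All 10 members passed the filter on low values. The libraries were made from untreated testis tissue of Wandong cattle, an indigenous Chinese breed. Calves of 3 months, before maturity, gave 3 libraries and mature bulls of 3 years gave 3, with 1 library of total RNA per animal after depletion of ribosomal RNA. Levels are given as FPKM, fragments per length of transcript scaled to the fragments of the library, as the authors deposited them. Such values can be compared between genes. No counts were given for these values, so the depth behind a single value is unknown and the spread between animals served as the error. A gene was called when the limma adjusted p was below 0.05 and the log2 fold change of FPKM + 1, bulls minus calves, was at least 1 in size. For weakly expressed genes, this added 1 makes the log2 difference smaller than the change in FPKM.

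The library labelled calf 3 stood apart from the other libraries. On log2(FPKM + 1) over the 18115 genes tested, its Pearson correlation was 0.764 with calf 1 and 0.770 with calf 2, whereas calf 1 and calf 2 reached 0.979 with each other and the bulls 0.968 to 0.971. The summed FPKM of 6 oligodendrocyte markers was 13017 in calf 3 and 19.7 to 29.4 in the other libraries, and all 6 were highest in calf 3. That of 5 astrocyte markers was 1787 in calf 3 and 6.70 to 8.07 in the others, and that of 6 neuron markers 713 and 4.63 to 15.9. All of these were highest in calf 3 as well. The summed level of the Leydig cell markers was 0.502 in calf 3, whereas calf 2 and calf 1 had 1141 and 1406. Of 8 Sertoli cell markers, 7 were lowest among the calves in calf 3, and FSHR, WT1 and GATA4 of these were listed at 0, while SOX9 stood at 13.7 against 21.9 and 25.6 and CLDN11, which oligodendrocytes also express, at 429 against 0.940 and 18.2 in calf 1 and calf 2. The label of this library is therefore in doubt, and the log2 difference of each member is given with and without it. For some genes other than the members, values are given with all libraries only. The scaling of the libraries moved the balance of all calls: 6474 genes were higher and 1741 lower in bulls by the rule for calls, but 3827 higher and 4538 lower after quantile normalization. The median log2 fold change of all genes was 0.43 as deposited and −0.26 after quantile normalization.

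SUN proteins span the inner nuclear membrane and bind, in the space between the nuclear membranes, to the KASH domains of nesprins in the outer membrane. Together they form the LINC complex, which joins the lamina inside the nucleus to the cytoskeleton outside it. In the testis such bridges move chromosomes during meiotic prophase, when telomeres attach to the envelope, and later shape the spermatid nucleus and hold the sperm tail to the head. Lamins are the intermediate filament proteins of the lamina, with A-type lamins from LMNA and B-type lamins from LMNB1 and LMNB2.

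The SUN genes known for their roles in spermatids were near the lower limit of the table in calves and among the strongest members in bulls. SPAG4, also called SUN4, takes part in shaping the spermatid nucleus and anchoring its microtubule sleeve. Its FPKM was 0.239, 0.174 and 0.0588 in the calves, in the order calf 1 to calf 3 that is kept throughout, and 39.4, 42.8 and 42.6 in bull 1 to bull 3. Every bull lay far above every calf. Calves averaged 0.157 ± 0.0912 (SD, n = 3) and bulls 41.6 ± 1.93 (SD, n = 3), a ratio of 265, or of 202 without calf 3. On the log2 scale bulls exceeded calves by 5.20 (standard error 0.16, limma adjusted p = 5.48e-06), and by 5.14 without calf 3.

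SUN3 is another SUN protein of spermatids, found along the nuclear face that carries the manchette. The level was 0.167, 0.345 and 0.0523 in the calves and 37.2, 40.8 and 32.8 in the bulls, again without overlap. The log2 difference was 4.998 (standard error 0.18, adjusted p = 9.28e-06) and 4.91 without calf 3. The entry holds 3 transcripts, and SUN3-201 made up 90.7% to 97.6% of its FPKM in bulls. The remainder came from assembled transcripts named SUN3-AS1 and SUN3-AS2, and bull 2 had the largest part, with 7.50% from SUN3-AS2. The libraries were strand-specific, but how strand was used in the counting was not given in the sources used here, so reads of SUN3 and of these antisense transcripts may be mixed. SUN3-201 alone was called as well, with a log2 fold change of 4.93 (adjusted p = 1.25e-05), and of 4.86 without calf 3.

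SUN5 couples the sperm head to the tail. It was listed at 0 in calf 1 and calf 2 and at 0.0284 in calf 3, and at 20.5, 19.7 and 27.2 in the bulls. No ratio is given because calves were at or near 0. The log2 difference was 4.53 (standard error 0.19, adjusted p = 1.33e-05) and 4.54 without calf 3. SUN5 (ENSBTAG00000013056, 62276784 to 62297291) and SPAG4 (ENSBTAG00000006949, 64841049 to 64845754) both lie on chromosome 13, whereas SUN3 (ENSBTAG00000008155) lies on chromosome 4, 7704285 to 7744159, on the ARS-UCD assembly to which the scaffold names in the table belong. SUN3, SUN5 and SPAG4 were called higher in bulls under all 16 alternatives, with log2 fold changes of at least 3.94, 3.72 and 4.14. Each was under an FPKM of 1 in every calf and so passed the filter on low values through the bulls alone. Under that filter their direction was set in advance, and the calls lend it no support.

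The markers of spermatocytes and spermatids were also higher in bulls, whereas those of spermatogonia went both ways. The summed FPKM of 6 spermatocyte markers was 3.03 to 19.7 in calves and 245 to 295 in bulls, that of 6 round spermatid markers 0.0563 to 1.03 and 181 to 214, and that of 6 elongating spermatid markers 8.79 to 10.8 and 14837 to 16558. All 6 of each list were called higher in bulls, and without calf 3 5 of the spermatocyte markers and all 6 of both spermatid lists were, where 35.7% of all genes were called higher with calf 3 and 37.9% without it. All round spermatid markers, most elongating spermatid markers and some spermatocyte markers were under an FPKM of 1 in every calf. They passed the filter through the bulls alone, so their direction was set in advance and the counts lend it no support. Of 8 spermatogonia markers, 2 were called higher (DDX4 and NANOS3) and 1 lower (ZBTB16, by a log2 difference of −1.93), against 3 and 2 without calf 3. Their summed FPKM was 146, 177 and 234 in the calves and 348 to 363 in bulls. Most of the sum in calf 3 came from UCHL1, at 201 there against 25.6 and 30.04 in calf 1 and calf 2. Of the 8 markers, 5 were lowest among the calves in calf 3, with DAZL listed at 0, DDX4 at 0.0152 and DMRT1 at 0.0938. UCHL1, GFRA1 and ZBTB16 were higher in calf 3 than in any other library. The Sertoli cell markers summed to 1490 and 1796 in calf 2 and calf 1, 444 in calf 3, nearly all from CLDN11, and 188 to 224 in bulls. CLDN11 went against the sum, from 0.940 and 18.2 in calf 1 and calf 2 to 62.8, 84.0 and 73.3 in the bulls. Each of the other Sertoli cell markers was lower in every bull than in calf 1 and calf 2. More cells of a type and more RNA per cell cannot be told apart in these bulk samples, and the part of the germ cell share in the levels of the SUN genes was not tested.

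Of SUN1 and SUN2, which are expressed in most tissues, SUN1 was higher and SUN2 lower in every bull than in every calf. SUN1 (ENSBTAG00000046498, chromosome 25, 41819879 to 41866736), the main SUN protein at meiotic telomeres, stood at 7.09, 7.73 and 10.9 in the calves and 21.8, 15.5 and 22.7 in the bulls. The lowest bull was above the highest calf. Calves averaged 8.56 ± 2.02 (SD, n = 3) and bulls 19.99 ± 3.95 (SD, n = 3), and the log2 difference was 1.14 (standard error 0.23, adjusted p = 0.00728), and was 1.30 without calf 3. After quantile normalization the difference was 0.57 (adjusted p = 0.0717) and SUN1 was not called.
SUN2 (ENSBTAG00000003693, chromosome 5, 110358967 to 110377270) stood at 18.4, 24.5 and 15.97 in the calves and 9.49, 9.77 and 9.19 in the bulls. The bulls varied little among themselves, and the lowest calf was calf 3. The log2 difference of −0.96 (standard error 0.19, adjusted p = 0.00676) was just under the size needed for a call. Without calf 3 it was −1.09 (adjusted p = 0.000779), and after quantile normalization −1.57 (adjusted p = 0.00133), and SUN2 was called lower in bulls in both cases.

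SUN1 is listed with an Ensembl transcript and a transcript assembled from the reads. The Ensembl transcript SUN1-201 went from 4.29, 4.51 and 5.03 in the calves to 15.2, 9.32 and 15.9 in the bulls and was called higher (log2 fold change 1.33, adjusted p = 0.00448, and 1.39 without calf 3). For the assembled transcript the values were 2.81, 3.22 and 5.83 in the calves and 6.67, 6.14 and 6.83 in the bulls, and the difference of 0.66 was not called (adjusted p = 0.0839, and 0.91 with adjusted p = 0.00269 without calf 3). SUN1-201 held 60.4%, 58.3% and 46.3% of the gene's FPKM in the calves and 69.4%, 60.3% and 69.9% in the bulls. The ranges overlapped, and a difference beyond the spread between animals was not detected (two-sided exact permutation test, p = 0.2).

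The makeup of the SUN family differed between the groups. SUN3, SUN5 and SPAG4 together held 1.57%, 1.58% and 0.517% of the summed FPKM of the 5 SUN genes in the calves and 75.6%, 80.4% and 76.3% in the bulls. This share is a ratio within a library and does not depend on how libraries are scaled. It differed by 76.2 percentage points between the group means, or 75.8 without calf 3, with no overlap. The two-sided exact permutation test gave p = 0.1, which is the lowest p possible with 3 animals against 3. SUN3, SUN5 and SPAG4 were under an FPKM of 1 in every calf and passed the filter through the bulls alone. The direction of their share was thus largely set in advance, and the test lends it no support. The summed level of the 5 genes was 25.9 to 32.8 in calves and 128 to 134 in bulls. For SUN1 and SUN2 alone, the sum was 25.5, 32.3 and 26.8 in calves and 31.3, 25.2 and 31.9 in bulls, so the groups overlapped in the sum. SUN1 made up 27.9%, 23.9% and 40.5% of that sum in the calves and 69.7%, 61.3% and 71.2% in the bulls (two-sided exact permutation test, p = 0.1). Of 12 shares computed in all, 9 reached this smallest p, which is 0.133 after Benjamini-Hochberg adjustment over the 12. The design named 3 of these shares, and 9 were added after the values were seen.

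**Figure D1:**
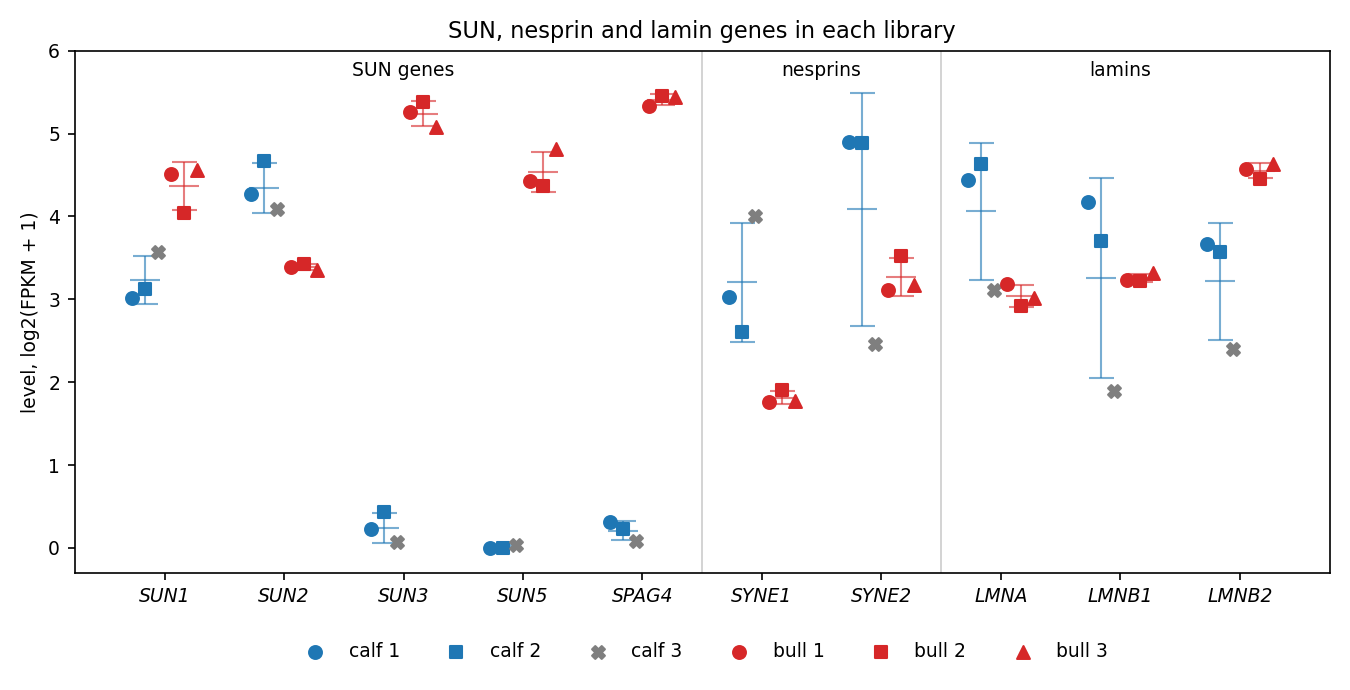
The vertical axis is the level as log2(FPKM + 1), and each of the 10 genes has a point for every library (blue calf 1 and calf 2, grey cross calf 3, red bulls), with the mean and SD of each group of 3 as bars. SUN3, SUN5 and SPAG4 lie near 0 in calves and above 4 in bulls, and calf 3 departs from calf 1 and calf 2 most in SYNE2.

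SYNE1 and SYNE2 encode the giant nesprins, which reach from the outer nuclear membrane to actin and, through partners, to microtubule motors. SYNE2 (ENSBTAG00000025450, chromosome 10, 76093558 to 76386867) stood at 28.8, 28.7 and 4.52 in the calves and at 7.62, 10.5 and 8.04 in the bulls. Calf 1 and calf 2 lay above all bulls and calf 3 below them. With all libraries the log2 difference was −0.81 (standard error 0.68, adjusted p = 0.350), close in size to its standard error. Without calf 3 it was −1.62 (standard error 0.15, adjusted p = 0.000172), and SYNE2 was called lower in bulls at 8.73 ± 1.57 (SD, n = 3). Calf 3 is also the library with the high oligodendrocyte, astrocyte and neuron markers and the low Leydig cell markers, and the part of these cells in the level of SYNE2 was not tested.

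SYNE1 went the other way in calf 3. It stood at 7.13, 5.07 and 15.01 in the calves and at 2.39, 2.74 and 2.43 in the bulls, without overlap. The log2 difference was −1.39 (standard error 0.37, adjusted p = 0.0204), and the gene was called lower in bulls. Without calf 3 the value was −0.998 (adjusted p = 0.00242), which just misses the size for a call, and leaving out any 1 bull also ended the call (adjusted p = 0.0611 to 0.0712). The share of SYNE1 in the sum of SYNE1 and SYNE2 was 19.9%, 15.02% and 76.8% in the calves and 23.9%, 20.7% and 23.2% in the bulls. Calf 3 decides the sign of that comparison: the bulls were 14.7 percentage points lower on average with calf 3 and 5.15 points higher without it (two-sided exact permutation test with all libraries, p = 1).

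The SYNE1 entry of the table (ENSBTAG00000009362) is much shorter than the interval up to the next named gene. It runs from 89115405 to 89174252 on chromosome 9, and 487 kb separate its end from the next named protein-coding gene, MYCT1. In the RefSeq annotation of ARS-UCD2.0 no other protein-coding gene lies between SYNE1 and MYCT1. The table lists 4 unnamed Ensembl entries in that interval, and they were examined after the values of SYNE1 were seen, so they are described without a test. The nearest to SYNE1, ENSBTAG00000052949, behaved like it: 8.75, 6.13 and 20.4 in the calves and 2.56, 3.44 and 2.81 in the bulls, a log2 difference of −1.54, or −1.09 without calf 3. For the next, ENSBTAG00000054309, the values were 2.77, 1.81 and 6.37 in calves and 1.08, 1.54 and 1.38 in bulls, a difference of −0.88, or −0.48 without calf 3.
At the entries farther away calves and bulls overlapped, with calf 3 above every bull and calf 1 and calf 2 below. ENSBTAG00000052173 had 3.16, 3.39 and 8.20 in the calves and 4.71, 4.57 and 4.66 in the bulls, and ENSBTAG00000054597 had 1.61, 1.97 and 5.11 in the calves and 2.32, 3.02 and 2.83 in the bulls. The log2 differences were 0.03 and 0.04 with all libraries, and 0.40 and 0.41 without calf 3. The FPKM of ENSBTAG00000052173 divided by that of SYNE1 was 0.443, 0.668 and 0.546 in the calves and 1.97, 1.67 and 1.92 in the bulls. The level of SYNE1 given above is that of its named entry alone. The table gives no strand for these entries and does not say that they belong to SYNE1.

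**Figure D2:**
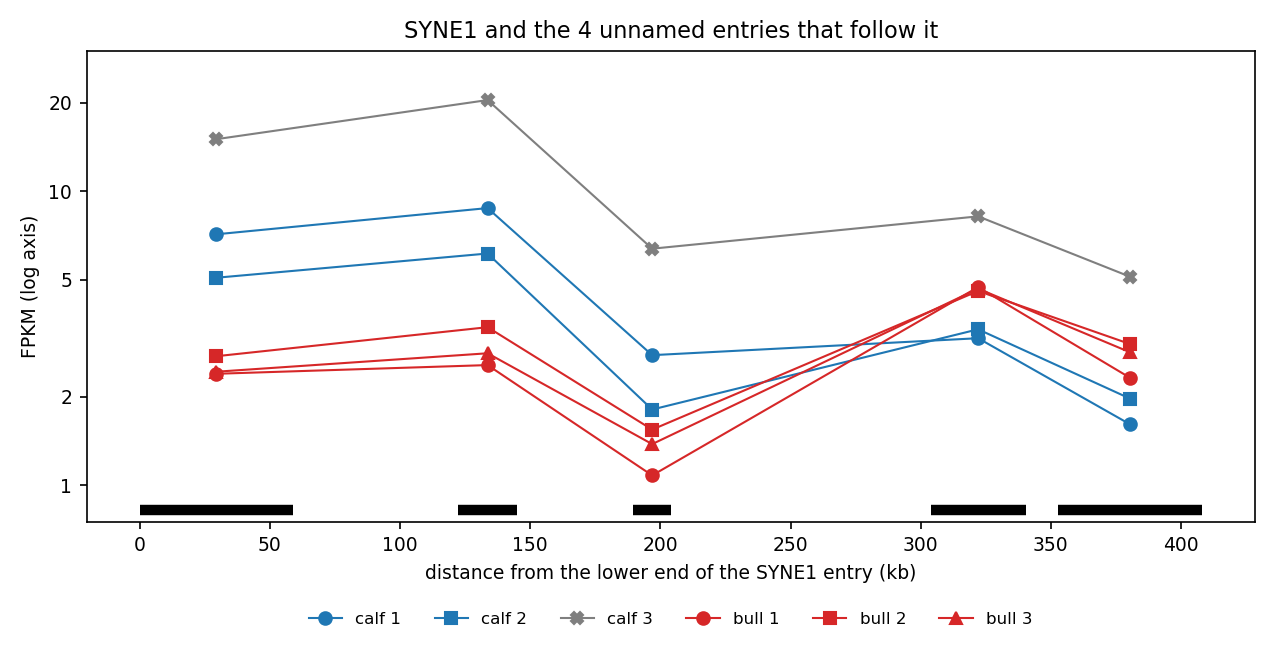
The horizontal axis is the distance in kb from the lower end of the SYNE1 entry and the vertical axis is FPKM on a log axis. Black bars mark the extent of SYNE1 and the 4 unnamed entries that passed the filter, and lines join the values of a library. The red lines of the bulls lie under the blue lines of calf 1 and calf 2 over the entries up to 204 kb and above them over the last pair, while calf 3 is highest throughout.

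Among the lamins, LMNB2 was higher in every bull than in every calf, whereas LMNA and LMNB1 were lower in bulls than in calf 1 and calf 2 only. LMNA (ENSBTAG00000017574, chromosome 3, 14642915 to 14670926), whose transcripts encode lamins A and C, stood at 20.7, 23.8 and 7.65 in the calves and 8.07, 6.58 and 7.11 in the bulls. Calf 3 lay within the range of the bulls. The log2 difference was −1.02 (standard error 0.42, adjusted p = 0.0830) with all libraries and −1.50 (standard error 0.14, adjusted p = 0.000139) without calf 3, where it was called lower. The table holds 1 transcript of LMNA, so lamins A and C could not be separated.
LMNB2 (ENSBTAG00000013624, chromosome 7, 21133347 to 21154526) encodes lamin B2 and, from a shorter transcript of germ cells, lamin B3. It stood at 11.7, 10.9 and 4.28 in the calves and 22.8, 20.9 and 23.7 in the bulls, with no overlap. The difference of 1.33 (standard error 0.36, adjusted p = 0.0213) was called, but without calf 3 it was 0.93 (adjusted p = 0.000445), under the size for a call, and after quantile normalization 0.72 (adjusted p = 0.146). The call was also lost without any 1 bull (adjusted p = 0.0627 to 0.0758). Here too only 1 transcript is listed, which leaves lamins B2 and B3 together.
LMNB1 (ENSBTAG00000002882, chromosome 7, 27122942 to 27175858), the other B-type lamin, had values of 17.0, 12.0 and 2.71 in the calves and 8.40, 8.36 and 8.95 in the bulls. With all libraries its log2 difference was 0.00 (95% confidence interval −1.44 to 1.44, adjusted p = 0.997), an interval that leaves room for a change of a called size in either direction. Without calf 3 it was −0.68 (adjusted p = 0.00960), lower in bulls but not called. All 3 lamins were lowest among the calves in calf 3, at 0.344, 0.186 and 0.378 of the mean of calf 1 and calf 2 for LMNA, LMNB1 and LMNB2.

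Within a library, LMNA held 41.8%, 51.0% and 52.3% of the summed lamin FPKM in the calves and 20.6%, 18.4% and 17.9% in the bulls. Every bull was below every calf, calf 3 included, and the means differed by −29.4 percentage points, or −27.4 without calf 3 (two-sided exact permutation test, p = 0.1). LMNB2 held 23.8%, 23.3% and 29.3% in the calves and 58.0%, 58.3% and 59.6% in the bulls. The share of LMNB1 was 34.4%, 25.7% and 18.5% in the calves and 21.4%, 23.4% and 22.5% in the bulls, which overlapped. The summed lamin level was 49.4, 46.8 and 14.6 in the calves and 39.2, 35.8 and 39.8 in the bulls.

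**Figure D3:**
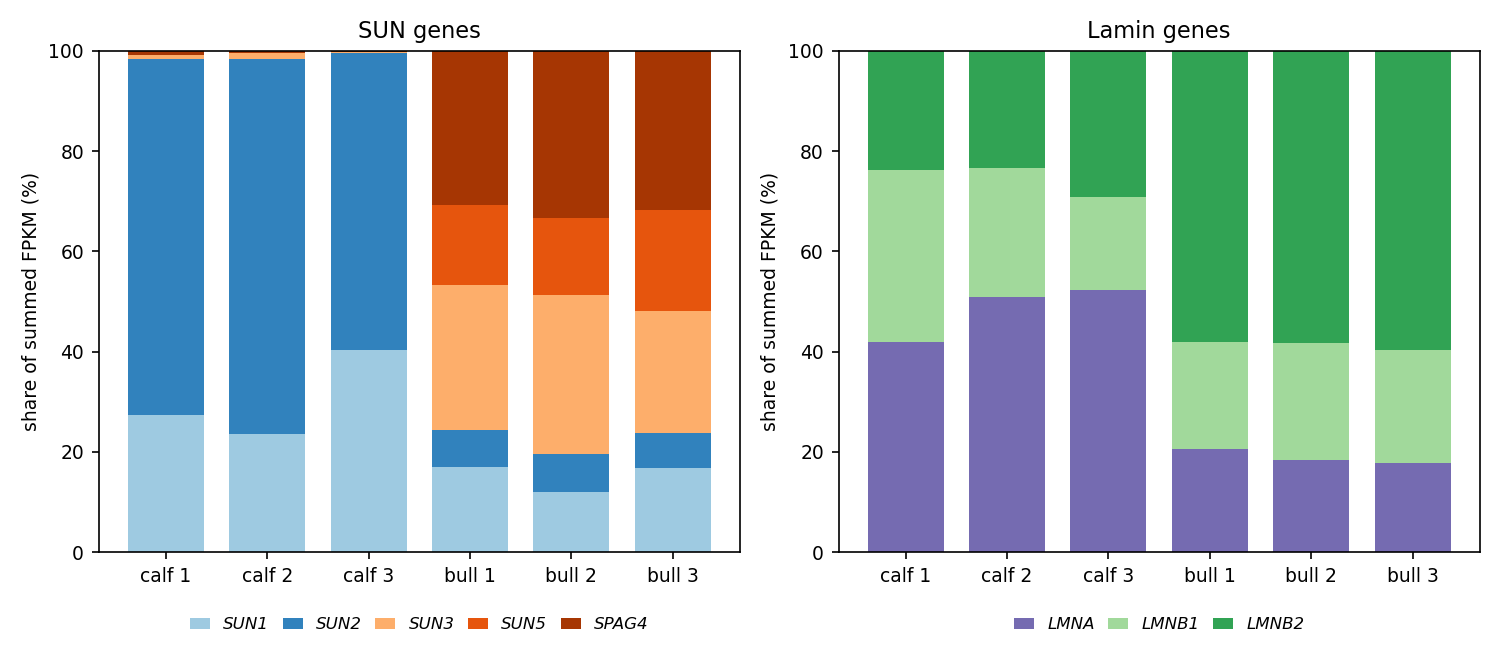
Stacked bars give the share of each gene, in percent, in the summed FPKM of the 5 SUN genes (left) and the 3 lamin genes (right) for each library. SUN3, SUN5 and SPAG4 take 75.6% to 80.4% of the SUN bar in bulls and at most 1.58% in calves, and LMNA takes 17.9% to 20.6% of the lamin bar in bulls against 41.8% to 52.3% in calves.

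Over the 10 members, 5 were called higher in bulls (SUN1, SUN3, SUN5, SPAG4 and LMNB2) and 1 was called lower (SYNE1). For SUN3, SUN5 and SPAG4 the direction and the lack of overlap were set by the filter on low values. Of all genes tested, 45.3% were called, 35.7% higher and 9.61% lower. The median log2 fold change was 0.57 over the members and 0.43 over all genes. In 7 members the FPKM of calves and bulls did not overlap, 5 with the bulls higher and 2 with the bulls lower, against 67.4% of all genes, 46.1% higher and 21.3% lower. Without calf 3, 4 members were called higher and 3 lower (SUN2, SYNE2 and LMNA), against 37.9% and 13.6% of all genes (51.5% in all), and the medians were 0.12 and 0.43. All 10 members were then free of overlap, as were 84.4% of all genes. After quantile normalization 3 members were called higher and 3 lower, against 21.1% and 25.1% of all genes (46.2% in all).
At the level of transcripts, 17 entries belong to the members and 11 passed the filter. Of these, 5 were called higher and 1 lower, against 34.8% and 9.37% of all transcripts tested (44.2% in all). Without calf 3 these were 4 and 3, against 36.1% and 13.1% (49.2% in all).

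**Figure D4:**
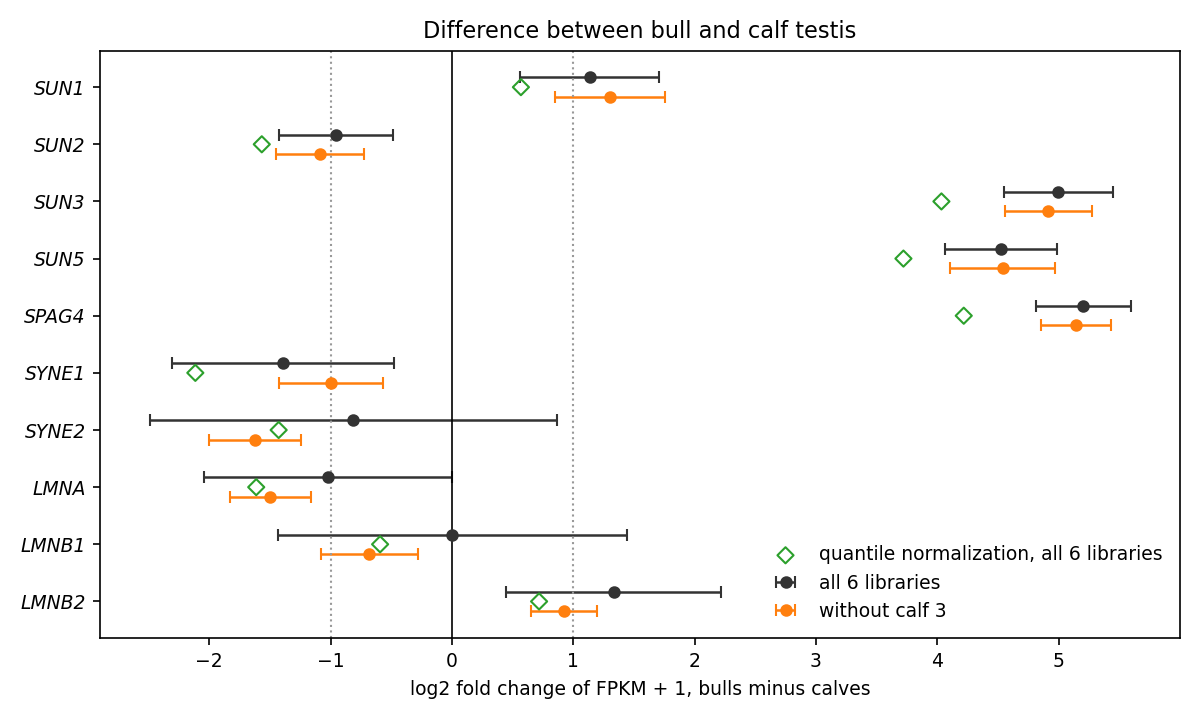
Points give the log2 fold change of FPKM + 1, bulls minus calves, with 95% confidence intervals from limma, for all 6 libraries (black) and without calf 3 (orange); open diamonds are values after quantile normalization and dotted lines mark a log2 fold change of 1 in size. The intervals of SYNE2, LMNA and LMNB1 narrow without calf 3, and SUN3, SUN5 and SPAG4 lie at 3.72 or more in each.

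The order of the levels also differed between ages. In bulls, SPAG4 (41.6) and SUN3 (36.9) came first, followed by SUN5 (22.5), LMNB2 (22.4) and SUN1 (19.99). The ranges of SPAG4 and SUN3 overlapped, as did those of SUN5, LMNB2 and SUN1. Then came SUN2 (9.48), SYNE2 (8.73), LMNB1 (8.57) and LMNA (7.26), of which SYNE2 overlapped with each of the other 3 and those 3 did not overlap with one another, and SYNE1 (2.52) was lowest. In calf 1 and calf 2, SYNE2 (28.7), LMNA (22.3) and SUN2 (21.5) led, the last pair overlapping, and SUN3, SPAG4 and SUN5 were the lowest.

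Partners of the members were described from lists of genes chosen with earlier results of these data known. Their counts stand against the background of all genes given above: 35.7% called higher and 9.61% lower, 37.9% and 13.6% without calf 3, and 21.1% and 25.1% after quantile normalization. Among further KASH proteins, CCDC155, the KASH5 protein that pairs with SUN1 at meiotic telomeres, stood at 3.52, 4.65 and 0.180 in calves and 31.7, 30.3 and 32.4 in bulls, and rose by 3.38 on the log2 scale (adjusted p = 0.00378), or 2.68 without calf 3. SYNE3, a nesprin that binds intermediate filaments through plectin, stood at 17.2, 21.3 and 5.32 in calves and 4.68, 4.35 and 4.13 in bulls. Its difference of −1.35 was not called (adjusted p = 0.0565), while without calf 3 it was called at −1.90 (adjusted p = 6.43e-05). LRMP and SYNE4 did not pass the filter and were not tested. LRMP stood at 2.79, 1.84 and 0.941 in the calves and 0.286, 0.291 and 0.183 in the bulls, without overlap, and missed the filter through calf 3. SYNE4 stood at 0.155, 0.301 and 0.113 in the calves and 0.393, 0.207 and 0.454 in the bulls, with overlap.
Of 5 tested genes of meiotic telomere attachment, 4 were called higher in bulls and 0 lower, with a median log2 fold change of 3.10, and the counts were the same without calf 3. TERB2, which links telomeres to the envelope, went from 0.412, 0.521 and 0 to 56.7, 45.6 and 41.1 (log2 fold change 5.23, adjusted p = 1.74e-05). With every calf under 1, its direction was set by the filter. SPDYA, an activator of CDK2 at telomeres, rose by 4.04, TERB1 by 3.10 and CDK2 by 2.32. TERF1 was lower in every bull than in every calf but was not called (−0.40, adjusted p = 0.228). MAJIN, also on this list, did not pass the filter and was not tested. It stood at 0.232, 0.365 and 0 in the calves and 0.997, 1.10 and 0.924 in the bulls, without overlap. After quantile normalization 4 of the 5 were called higher and 1 lower.

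All 11 tested genes of sperm head and tail attachment and the spermatid nuclear membrane were called higher in bulls, with a median log2 fold change of 4.86. All 11 were also called higher without calf 3 (median 4.90), and 10 after quantile normalization. Of all genes, 35.7%, 37.9% and 21.1% were called higher in these fits. The list was chosen with earlier results known. Most of the 11, ODF1 among them, were under an FPKM of 1 in every calf. They passed the filter through the bulls alone, so their direction was set in advance and the counts lend it no support. ODF1, a protein of the outer dense fibres, rose by 7.48, DPY19L2, which anchors the acrosome to the nuclear envelope, by 6.17, SPACA1 by 5.50 and SPATA6, needed for the sperm neck, by 5.49, with adjusted p between 2.53e-06 and 0.000158. Among the 6 genes of lamin processing, 1 was called: FNTA, a subunit of farnesyltransferase, which had 23.6, 23.1 and 55.5 in calves and 193, 200 and 154 in bulls (log2 fold change 2.50, adjusted p = 0.00183, and 2.90 without calf 3). Without calf 3 a second gene, NARF, was called at 1.02.
Of 17 tested genes of the inner nuclear membrane and lamina partners, 5 were called higher and 0 lower, where 35.7% and 9.61% of all genes were. NRM rose by 3.34, TOR1AIP1, a lamina protein, by 1.99, LBR, the lamin B receptor, by 1.44 and ANKLE2 by 1.39, with adjusted p between 0.000373 and 0.00717. Without calf 3, 4 were called higher and 3 lower (TMEM201, TMEM43 and TMPO), and after quantile normalization 2 were called higher and 4 lower. With all libraries TMEM201 was lower in every bull than in every calf, by a difference under the size for a call (−0.83, adjusted p = 0.0261). Of 29 tested nuclear pore genes, 11 were called higher and 0 lower (9 and 0 without calf 3, 5 and 1 after quantile normalization), a share of higher calls close to that of all genes, and below it without calf 3 and after quantile normalization. The largest log2 fold changes called were those of NUP42 (3.93), NUP50 (3.77), NUP210L (3.33) and RAE1 (2.39).

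**Figure D5:**
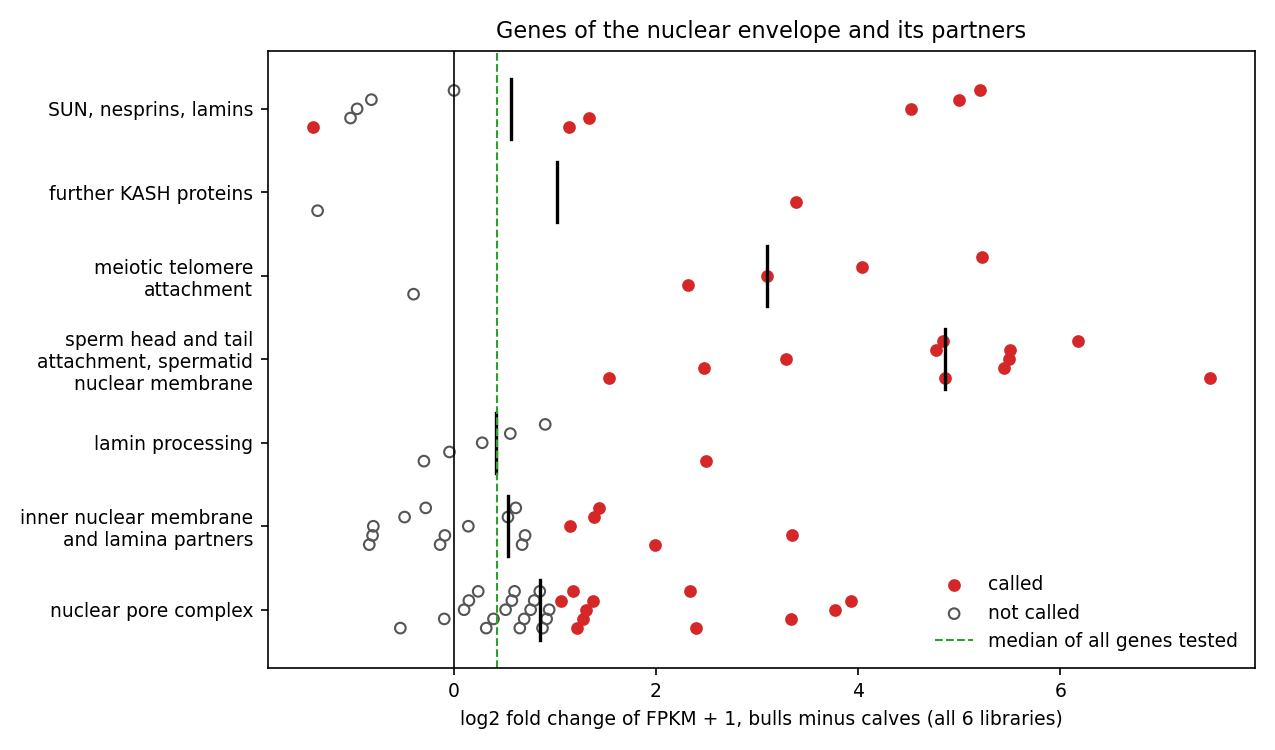
Each point is a tested gene at its log2 fold change of FPKM + 1, bulls minus calves, in all 6 libraries; filled red points were called, vertical black bars are list medians and the dashed green line is the median of all genes (0.43). All 11 points of the sperm attachment list are filled, while the lamin processing, inner membrane and pore lists hold 1, 5 and 11 filled points.

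For each member, the gene with the most similar pattern was sought among 13383 tested genes with a symbol, as the smallest distance between log2(FPKM + 1) profiles centred over the 6 libraries. It was MS4A14 for SPAG4 (distance 0.107), GPR18 for SUN3 (0.209), SPATA25 for SUN5 (0.148), TIMM17A for SUN1 (0.106) and MAMLD1 for SUN2 (0.105). For the nesprins it was MAP2K1 for SYNE1 (0.227) and ROR1 for SYNE2 (0.167). The lamins were nearest to TAX1BP3 for LMNA (0.192), a copy of the multigene family H2B for LMNB1 (0.177) and NME6 for LMNB2 (0.196). MS4A14, picked for its likeness to SPAG4, stood at 0.150, 0.161 and 0.0246 in the calves and 39.8, 43.5 and 42.1 in the bulls, and the distance on log2(FPKM + 1) gives differences among such low calf values little weight.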

How the data were processed

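Testis RNA of 3 calves and 3 bulls was sequenced after depletion of ribosomal RNA, and groups and library numbers were taken from the sample titles. The Methods name Bowtie2 for taking out ribosomal reads, TopHat2 for mapping and StringTie for assembly. Values in FPKM were deposited by the authors for 47249 genes and 108527 transcripts in each library, and the Methods and Results name Cuffdiff and Ballgown for the levels of circRNAs without saying which tool made the values of genes. The Methods name a UMD assembly, whereas the positions in the tables follow an ARS-UCD assembly. All 10 members matched the RefSeq table by symbol.

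Values were transformed to log2(FPKM + 1), and a feature was tested if 3 or more of the 6 libraries reached an FPKM of 1: 18115 genes and 23212 transcripts. Calves and bulls were compared with limma 3.58.1 in R 4.3.3 with an empirical Bayes trend, on the whole table, with Benjamini-Hochberg adjustment. The procedure was also run on simulated data that held no shift in scaling and no library that stands apart. That run, whose outcome is not given here, therefore has no bearing on those features of the data. Shares were compared by exact permutation (20 labelings, smallest two-sided p 0.1). Figures were drawn with matplotlib 3.10.9.

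The rule for named genes took all members, at most 4 called genes with the largest change from each further list, and the nearest pattern of each member. Outside it, SYNE3, SYNE4, LRMP, TERF1, MAJIN, NARF, TMEM201, TMEM43, TMPO and the spermatogonia markers were named after their values were seen. The members, lists and rule were chosen with earlier results of these data known. The 16 alternatives covered the pseudocount (0.1 and 0.5), the filter, the scaling, the model, a replicate block and each library left out. circRNA measurements were not analysed here, and no sequences were printed, since no sequence file was given.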

Additional observations from a re-analysis of the deposited data

How the results depend on the processing

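SUN3, SUN5 and SPAG4 kept direction and call under all 16 alternatives, though they passed the main filter through the bulls alone, which set their direction. SUN2, SYNE1, SYNE2 and LMNA kept their direction (lower in bulls) under all 16. SUN1 was called in 14 of 17 fits, LMNB2 in 9, SUN2 in 6, SYNE1 in 13, SYNE2 in 3 and LMNA in 5. LMNB1 turned from 0.00 to −0.59 with quantile normalization, −0.56 with upper quartile scaling, −1.29 with quantile normalization without calf 3 (called lower), −0.65 with array weights, and between −0.68 and 0.46 with a library left out. Members called higher numbered 3 under quantile normalization, with and without calf 3, and under upper quartile scaling, and 4 to 5 with a library left out. Members called lower numbered 2 with a pseudocount of 0.1, 3 under quantile normalization and upper quartile scaling, 5 under quantile normalization without calf 3, 4 with array weights, and 0 to 3 with a library left out: 3 without calf 3 and 0 without any 1 bull, where the adjusted p of SYNE1 was 0.0611 to 0.0712. Transcripts of the members gave the same numbers under these settings, apart from the fit with no filter, where more transcripts were tested and 4 were called higher and 0 lower.

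For all genes, 3827 were called higher under quantile normalization and 4062 under it without calf 3, and 4538, 3683 and 5275 lower under quantile normalization, upper quartile scaling and quantile normalization without calf 3. For all transcripts these were 5018 and 5198 higher, and 5884, 4603 and 6655 lower. With a library left out, 6034 to 6859 genes were called higher and 1218 to 2466 lower (2466 without calf 3). The difference in the share of SYNE1 ranged from −25.8 to 5.15 percentage points with a library left out and was positive without calf 3, where calves 1 and 2 both lay under the bulls. The shares of the SUN3, SUN5 and SPAG4 group (74.7 to 77.1 points) and of LMNA (−32.7 to −27.4 points) kept their sign. For the SUN3, SUN5 and SPAG4 group the sign was largely set in advance, since these genes passed the filter through the bulls alone. The cause of these shifts was not tested.

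Calves and bulls were different animals, and the library numbers were not used to pair them in the main fit. Deviations of same-numbered calves and bulls from their group means correlated at 0.0277, 0.0246 and 0.0341, and those of the other pairs at −0.0487 to 0.0221. Such correlations cannot show whether the numbers carry a pairing. With a replicate block, 5 members were called higher and 1 lower, as without it, and 6437 genes were called higher and 1691 lower. The FPKM values carry no counts, so the counting error of the low values of SUN3, SUN5 and SPAG4 in calves is unknown.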

Other observations

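The library labelled calf 3, whose label is in doubt, gave its own order of the members. SUN2 (FPKM 15.97) and SYNE1 (15.01) led, followed by SUN1 (10.9) and LMNA (7.65), while SYNE2, LMNB2 and LMNB1 stood at 4.52, 4.28 and 2.71. Against the mean of calf 1 and calf 2, SYNE1 was at a ratio of 2.46 and SUN1 of 1.47, whereas SUN2, LMNB2, LMNA, LMNB1 and SYNE2 were at 0.744, 0.378, 0.344, 0.186 and 0.157. All 4 unnamed entries between SYNE1 and MYCT1 were higher in calf 3 as well, at ratios of 2.51 to 2.86. In the 10 members, calf 3 lay outside the range of calf 1 and calf 2 every time, 7 times below and 3 times above. The share of all genes for which this held was not computed. SUN3, SUN5 and SPAG4 were near the lower limit in all calves, and SUN5 counted as above at 0.0284 against 0 in calf 1 and calf 2.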
